A study of Mus musculus with 7 samples.

Results

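Macrophages make cholesterol and fatty acids with enzymes whose genes are largely switched on together. The 36 genes described here comprise 7 of the mevalonate pathway, 10 that turn its product into cholesterol, 6 that sense or move sterols, 6 that build fatty acids, and 7 that desaturate, elongate or activate them. They were chosen by name from textbook roles, with results of these data already known. All 36 were among the 23361 genes quantified, and all 36 passed the expression filter that left 12858 genes for testing.

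The cells came from wild-type BALB/cJ mice, an inbred strain, whose left sciatic nerve had been cut and joined across a short gap in an empty conduit. Macrophages (Lin-F4/80+CD14+CD11b+CD16/32+) were sorted from the tissue that grew inside the conduit and profiled by RNASeq at day 5 (n = 3), day 14 (n = 2) and day 28 (n = 2). No uninjured nerve was included, so day 5 is the reference. The submitters call the libraries biological replicates, and neither the labels nor the methods give the age and sex of these mice or say whether a library holds cells of 1 animal or of several.

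The libraries held between 18027190 and 35247116 fragments counted to genes. Csf1r, the M-CSF receptor of macrophages, was at 406 to 493 FPKM in every library. Of the genes for the antigens sorted on, Emr1 (F4/80) was at 195 to 470.0 FPKM, Cd14 at 1431 to 3003, Itgam (CD11b) at 201 to 397 and Fcgr3 (CD16) at 232 to 276. Exclusion in the sort covered, among others, cells with Ly6G (granulocytes), Siglec F (eosinophils), CD3e, Ter119 or Thy1.2 (fibroblasts), and an antibody to CD31 (endothelial cells) is listed with them. FPKM is the number of fragments scaled to transcript length and library size, and so allows levels of different genes to be compared. In such bulk RNA, fewer cells of a type and less RNA per cell cannot be told apart.

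Cholesterol synthesis starts from acetyl-CoA, passes through mevalonate and the isoprenoids to squalene, and ends in a long series of steps that close and trim the sterol rings. Its genes are controlled by the sterol regulatory element binding proteins, SREBPs, made from Srebf1 and Srebf2. When membrane cholesterol is low, Scap carries the precursor from the endoplasmic reticulum to the Golgi, where proteases free the active factor. When cholesterol is plentiful, Insig1 and Insig2 hold Scap back. SREBPs bind promoters together with NF-Y and Sp1, whose binding sites hold the letters CCAAT and GGGCGG.

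These letters were searched in the 250 bases before the annotated start, on both strands, in RefSeq promoters of build GRCm38.p6. Of the 36 genes, 29 had a promoter in that set, and 10 of these were among the 14 genes called higher at day 28 than at day 5 below. CCAAT was present in 23 of the 29 genes (79.3%), GGGCGG in 23 (79.3%), and both in 17 (58.6%). Among all 9554 tested genes with a promoter, CCAAT was present in 40.5%, GGGCGG in 62.7% and both in 23.7%. Over all 27025 genes with a promoter, tested or not, the shares were 37.5%, 35.4% and 12.5%. Of the 10 genes called higher, 9 held both words, the exception being Scap, which held GGGCGG alone. The classical sterol regulatory element, spelled TCACNCCAC, was found in 1.22% of all genes with a promoter and in 1 of the 29 genes, Hmgcs1. A match is a string of letters and does not show that a factor binds there. The element was searched in this spelling alone, so a gene without a match may hold it in another. The 7 genes without a promoter in the set were not searched.

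The stretches below are the 60 bases, free of annotated exons, that hold the most kinds and copies of these words in 7 of the promoters. They are shown because they belong to genes whose levels are described below, and Hmgcs1 because, of the 29 genes searched, it alone matched TCACNCCAC. Capitals mark a match to 1 of the 3 words on either strand, so that ATTGG stands for CCAAT and CCGCCC for GGGCGG. Each is written 5′ to 3′ along the gene's own strand.
Hmgcs1 (chr13:119690206-119690265, + strand): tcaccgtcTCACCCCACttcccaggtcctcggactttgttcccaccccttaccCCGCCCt
Mvd (chr8:122443445-122443504, - strand): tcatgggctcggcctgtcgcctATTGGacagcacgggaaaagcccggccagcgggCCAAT
Lss (chr10:76531439-76531498, + strand): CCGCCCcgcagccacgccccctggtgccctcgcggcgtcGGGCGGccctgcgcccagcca
Cyp51 (chr5:4104773-4104832, - strand): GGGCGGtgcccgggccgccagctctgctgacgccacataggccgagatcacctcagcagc
Hsd17b7 (chr1:169969328-169969387, - strand): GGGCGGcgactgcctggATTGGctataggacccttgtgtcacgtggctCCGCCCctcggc
Acss2 (chr2:155517888-155517947, + strand): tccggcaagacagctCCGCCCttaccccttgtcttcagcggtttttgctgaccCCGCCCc
Acsl3 (chr1:78657761-78657820, + strand): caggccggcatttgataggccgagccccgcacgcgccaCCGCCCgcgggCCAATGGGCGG
In Acsl3 the words CCAAT and GGGCGG lie side by side. Elsewhere in their 250 bases, Hmgcs1, Lss, Cyp51 and Acss2 also held CCAAT and Mvd also held GGGCGG.

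From day 5 to day 28, 14 of the 36 genes rose and none fell (38.9% called, against 15.2% of all genes tested, with 7.74% higher and 7.51% lower). The 14 were Mvd, Idi1, Fdps, Sqle, Lss, Cyp51, Hsd17b7, Sc5d, Dhcr7, Scap, Acss2, Scd1, Fads1 and Acsl3. From day 5 to day 14, 6 rose and none fell (16.7%, against 4.78% of all genes, with 2.84% higher and 1.94% lower): Cyp51, Scap, Acss2, Scd1, Fads1 and Acsl3. Between days 14 and 28 none of the 36 was called, against 0.0622% of all genes, with 0.0311% higher and 0.0311% lower. DESeq2 and limma also called none there, and 1 gene, Srebf1, had an unadjusted p under 0.05 (12.2% of all genes). In the comparisons of days 14 and 28 with day 5, 17 and 18 of the 36 had an unadjusted p under 0.05, all of them higher (24% and 31.5% of all genes in either direction). These calls are from edgeR's quasi-likelihood test, adjusted by Benjamini-Hochberg over the 12858 genes, and a gene was called at an adjusted p under 0.05. Days 14 and 28 were both compared with the same day 5 libraries. Because the genes were chosen with results known, the counts describe the list and support nothing beyond it.

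Over the 36 genes, the median log2 fold change was 0.49 between days 5 and 14, 0.08 between days 14 and 28, and 0.40 between days 5 and 28. Over all genes tested it was 0.03, 0.01 and 0.03. The enzymes from squalene to cholesterol had the highest median from day 5 to day 28, at 0.86, followed by the desaturation group at 0.78, the mevalonate enzymes at 0.39, the regulators at 0.38 and the fatty acid builders at 0.18. Libraries of days 5 and 28 did not overlap for 25 of the 36 genes, 22 of them higher at day 28 and 3 lower. Among all genes tested, 26% were higher without overlap and 25.6% lower. At day 14, 18 of the 36 were above day 5 without overlap and none below (21.9% and 21.4% of all genes), and at day 28, 4 were above day 14 and 2 below (19.3% and 19.7%).

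The number of calls rested on single libraries. Without day 5 replicate 1, 2 or 3, the genes called from day 5 to day 28 numbered 4, 5 and 5, without day 28 replicate 1 or 2 they numbered 3 and 6, and without either day 14 library 18, of which 17 were higher and Scd2 was lower. Over the same settings, 3.4% to 20.6% of all genes were called. Acss2, Fads1 and Acsl3 were called higher from day 5 to day 28 in all 17 alternative analyses, and Cyp51 in 15 of 17.

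**Figure D1:**
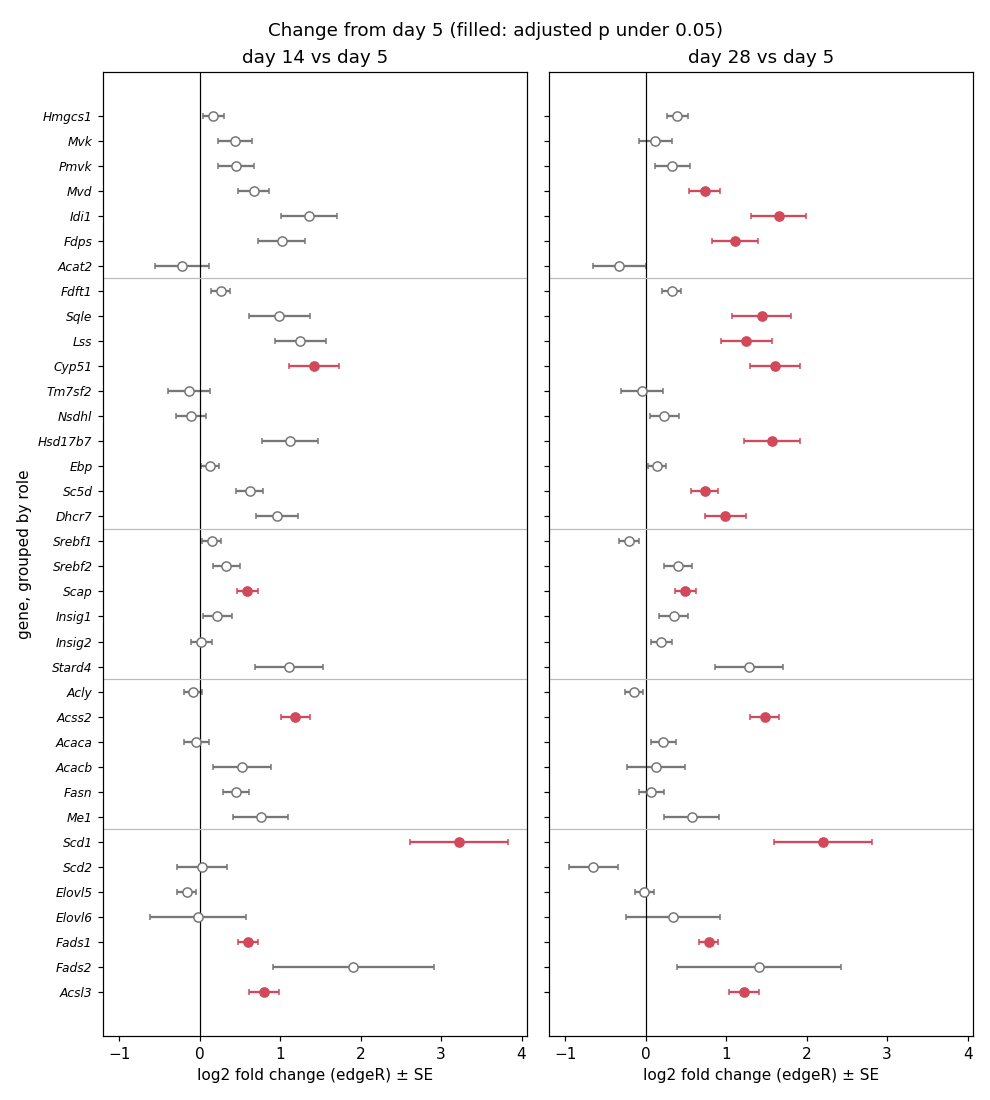
The log2 fold change of each of the 36 genes (rows, grouped by role from mevalonate enzymes at the top to desaturation, elongation and activation at the bottom) from day 5 to day 14 (left) and to day 28 (right), with error bars for ± 1 SE. Filled red points mark the 6 and 14 genes called higher, open grey points genes not called. Right of 0 lie 29 and 30 of the 36 points (80.6% and 83.3%, against 52.9% and 53.2% of all genes tested).

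In the mevalonate pathway, 3 of 7 genes rose by day 28: Mvd, Idi1 and Fdps. Idi1 (chr13:8885501-8892451 in GENCODE M21, GRCm38), which interconverts the basic isoprenoid building blocks, had FPKM values of 1.6, 1.77 and 1.33 in replicates 1, 2 and 3 of day 5, the order kept throughout. The values were 2.36 and 5.58 at day 14, and 5.85 and 3.88 at day 28. Every later library lay above every day 5 library, with a log2 fold change to day 28 of 1.65 ± 0.34 (SE, adjusted p = 0.0142). Fdps (chr3:89093588-89101959), which joins these blocks into farnesyl diphosphate, was at 7.63, 8.9 and 8.08 FPKM at day 5, at 10.3 and 22.6 at day 14, and at 19.8 and 14.8 at day 28. It rose by 1.11 ± 0.29 log2 to day 28 (adjusted p = 0.0325). Mvd, the decarboxylase that makes the first isoprenoid, was at 6.68, 7.41 and 5.8 FPKM at day 5, at 8.69 and 12.4 at day 14, and at 10.5 and 11.5 at day 28. Its rise to day 28 was smaller, 0.73 ± 0.19 log2 (adjusted p = 0.0309), again without overlap.

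The first enzyme of the branch, Hmgcs1, was at 10.7, 11 and 10.5 FPKM at day 5, at 10.5 and 13.5 at day 14, and at 14.7 and 13.1 at day 28. Both day 28 libraries were above all 3 at day 5, but the log2 difference of 0.39 ± 0.13 had an adjusted p of 0.078. Mvk and Pmvk, the kinases that follow, lay between 4.68 and 9.45 FPKM throughout and were not called (log2 fold changes to day 28 of 0.12 and 0.33). Acat2, the cytosolic thiolase, lay between 1.89 and 3.96 FPKM, with a log2 fold change of -0.33 ± 0.33. The genes called are the last 3 of these 7 in pathway order.

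From squalene to cholesterol, 6 of 10 genes rose by day 28: Sqle, Lss, Cyp51, Hsd17b7, Sc5d and Dhcr7. Sqle (chr15:59315077-59331192), the squalene epoxidase and a rate-limiting step, was at 1.98, 2.35 and 2.31 FPKM at day 5. It was at 2.13 in day 14 replicate 1 and 6.54 in day 14 replicate 2, and at 5.45 and 6.46 at day 28. Its day 28 mean was 2.69 times that of day 5 (log2 fold change 1.44 ± 0.37, adjusted p = 0.0314), and the day 14 libraries lay on either side of the difference. Cyp51 (chr5:4081145-4104746), the lanosterol demethylase, was at 1.25, 0.983 and 1.49 FPKM at day 5, at 2.09 and 4.47 at day 14, and at 4.13 and 3.35 at day 28. It rose both to day 14 (1.42 ± 0.31, adjusted p = 0.0388) and to day 28 (1.61 ± 0.31, adjusted p = 0.0103).

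Lss, which closes the rings to lanosterol, was at 1.05, 0.938 and 1.05 FPKM at day 5, at 1.66 and 3.12 at day 14, and at 2.89 and 1.86 at day 28 (log2 fold change to day 28 of 1.25 ± 0.32, adjusted p = 0.0291, with 0.89 and 1.52 without day 28 replicates 1 and 2). Hsd17b7, a sterol keto-reductase, was the least abundant of the 6, at 0.432, 0.555 and 0.511 FPKM at day 5, 0.657 and 1.48 at day 14, and 1.59 and 1.33 at day 28 (1.57 ± 0.35, adjusted p = 0.0183). In both, all later libraries exceeded all those of day 5. Dhcr7, which performs a final reduction to cholesterol, was at 3.23, 3.1 and 4.55 FPKM at day 5, 4.94 and 8.99 at day 14, and 6.84 and 7.45 at day 28 (0.99 ± 0.26, adjusted p = 0.0329). Sc5d, the sterol desaturase just before it, was at 3.63, 3.39 and 3.23 FPKM at day 5, 5.56 and 4.91 at day 14, and 5.9 and 5.35 at day 28 (0.73 ± 0.17, adjusted p = 0.0205). Sc5d was the only one of the 6 for which day 14 replicate 1 was above replicate 2.

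The other 4 enzymes of this arm were not called. Fdft1, the squalene synthase, was the most abundant at 35.6 to 51 FPKM (log2 fold change to day 28 of 0.32 ± 0.12, adjusted p = 0.0954). Ebp, a sterol isomerase, lay between 17.9 and 21.6 FPKM, and Nsdhl, a decarboxylase, between 4.57 and 6.98. Tm7sf2, a sterol reductase, lay between 2.42 and 3.02 FPKM, with a log2 fold change of -0.05 ± 0.26.

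**Figure D2:**
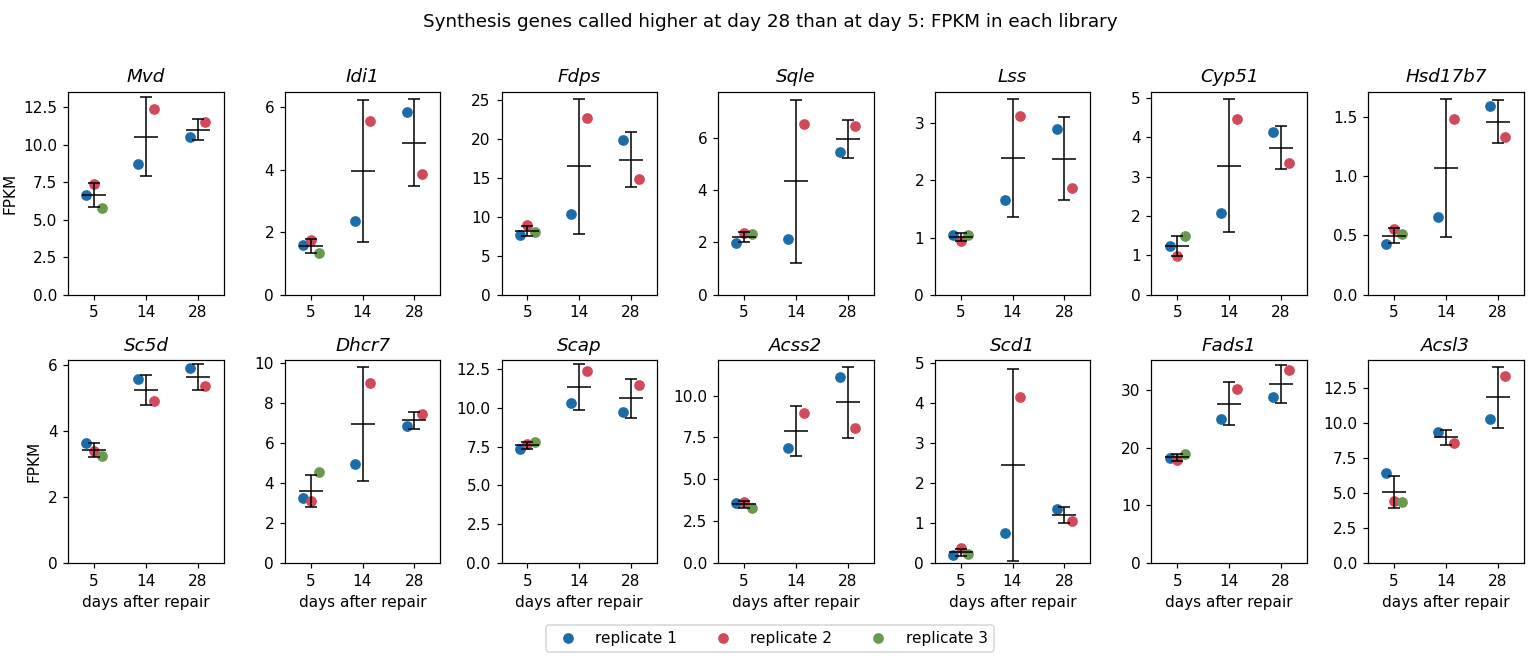
FPKM (linear axes from 0) of the 14 genes called higher at day 28 than at day 5, by days after repair. Each point is a library, coloured by replicate number, and bars give the mean ± SD. In all 14 panels the day 28 points lie above the day 5 points, while the 2 day 14 points are wide apart for Idi1, Fdps, Sqle and Scd1 and close for Sc5d and Acsl3.

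Among the genes that sense or carry sterols, 1 of 6 rose, Scap. Scap (chr9:110333288-110384950), the escort of the SREBP precursors, was at 7.34, 7.7 and 7.77 FPKM at day 5, at 10.3 and 12.4 at day 14, and at 9.72 and 11.5 at day 28. The rise was 0.59 ± 0.13 log2 to day 14 (adjusted p = 0.039) and 0.49 ± 0.13 to day 28 (adjusted p = 0.0332), with no overlap with day 5. Srebf2, the SREBP mainly tied to cholesterol genes, was at 18.9, 17.1 and 16.1 FPKM at day 5, at 17.6 and 25.7 at day 14, and at 20.6 and 24.9 at day 28, a log2 difference of 0.40 ± 0.17 to day 28 with an adjusted p of 0.137. Srebf1, mainly tied to fatty acid genes, was at 22, 25.2 and 24.2 FPKM at day 5, at 24 and 28.5 at day 14, and at 19.1 and 21.7 at day 28. Both day 28 libraries of Srebf1 were below all 5 others, and its log2 differences were -0.36 ± 0.14 from day 14 (adjusted p = 0.338) and -0.21 ± 0.12 from day 5 (adjusted p = 0.285).

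Insig1, a brake on SREBP processing that is itself an SREBP target, was at 37.6, 26.3 and 26.7 FPKM at day 5, 34.6 and 35.5 at day 14, and 32.4 and 44.2 at day 28. Its groups overlapped, since day 5 replicate 1 stood above 3 of the 4 later libraries, and the adjusted p was 0.219 to day 28. Insig2 was at 8.1, 8.32 and 8.5 FPKM at day 5, 7.77 and 8.88 at day 14, and 9.8 and 9.34 at day 28 (log2 difference 0.19 ± 0.13, adjusted p = 0.342). Stard4, a cytosolic cholesterol carrier and SREBP target, was at 1.05, 1.12 and 1.34 FPKM at day 5, 1.19 and 3.79 at day 14, and 3.3 and 2.31 at day 28. Its day 28 mean was 2.4 times that of day 5, with an adjusted p of 0.0668.

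Among the builders of fatty acids, 1 of 6 rose, Acss2, and the enzymes of the core pathway did not pass the test. Acss2 (chr2:155517948-155585724), which makes acetyl-CoA from acetate, was at 3.59, 3.62 and 3.28 FPKM at day 5, at 6.84 and 8.95 at day 14, and at 11.1 and 8.09 at day 28. It had the smallest adjusted p of the 36 genes in both comparisons with day 5, with a rise of 1.19 ± 0.18 log2 to day 14 (adjusted p = 0.017) and of 1.48 ± 0.18 to day 28 (adjusted p = 0.00191). The call at day 14 was kept without either day 14 or day 28 library and lost without any 1 of the day 5 libraries, where the rise was 1.15 to 1.21, and over all alternatives the adjusted p reached 0.0983. Acaca, the carboxylase that makes malonyl-CoA, was at 3.47, 3.77 and 3.64 FPKM at day 5, 2.93 and 4.07 at day 14, and 4.19 in both day 28 libraries (0.22 ± 0.15 to day 28, adjusted p = 0.333). Fasn, the fatty acid synthase, was low, at 1.92, 1.48 and 1.81 FPKM at day 5, 2.13 and 2.59 at day 14, and 1.69 and 1.94 at day 28. Its log2 difference was 0.45 ± 0.16 to day 14 (adjusted p = 0.133) and 0.07 ± 0.16 to day 28 (adjusted p = 0.796).

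Acly, which makes acetyl-CoA from citrate, was the most abundant of this group at 37.8 to 46.5 FPKM, and both day 28 libraries were below day 5 without passing the test (log2 difference -0.15 ± 0.11, adjusted p = 0.385). Acacb, the mitochondrial carboxylase, lay between 0.302 and 0.64 FPKM. Me1, the malic enzyme that supplies NADPH, lay between 0.463 and 0.962 FPKM, with every later library above day 5 (0.57 ± 0.34 to day 28, adjusted p = 0.278).

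Of the genes that desaturate, elongate or activate fatty acids, 3 of 7 rose: Scd1, Fads1 and Acsl3. Fads1 (chr19:10182888-10196877), the delta-5 desaturase of polyunsaturated fatty acids, was at 18.2, 17.8 and 19 FPKM at day 5, at 25 and 30.3 at day 14, and at 28.8 and 33.5 at day 28. Its libraries did not overlap with day 5 at either time, with rises of 0.60 ± 0.12 log2 to day 14 (adjusted p = 0.032) and 0.78 ± 0.12 to day 28 (adjusted p = 0.00469). Acsl3 (chr1:78657825-78707743), an acyl-CoA synthetase of the endoplasmic reticulum and lipid droplets, was at 6.43, 4.42 and 4.38 FPKM at day 5, at 9.39 and 8.6 at day 14, and at 10.3 and 13.4 at day 28. It rose by 0.80 ± 0.19 log2 to day 14 (adjusted p = 0.0481) and by 1.22 ± 0.19 to day 28 (adjusted p = 0.00464), and both day 28 libraries were above both at day 14.

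Scd1 and Scd2, neighbouring genes on chromosome 19, encode stearoyl-CoA desaturases that place a double bond in saturated fatty acids. Scd1 rose and Scd2 was not called, and the difference between them was not tested. Scd1 (chr19:44394455-44407879) was at 0.204, 0.367 and 0.226 FPKM at day 5, at 0.739 and 4.13 at day 14, and at 1.34 and 1.05 at day 28, from 23 to 430 fragments a library. It rose by 3.22 ± 0.61 log2 to day 14 (adjusted p = 0.0252) and by 2.2 ± 0.61 to day 28 (adjusted p = 0.04). Scd2 (chr19:44293674-44306864) was far more abundant, at 24.5, 24.5 and 27.2 FPKM at day 5, 14.5 and 36.8 at day 14, and 18 and 14 at day 28. Its day 28 libraries were below all of day 5, with a log2 difference of -0.65 ± 0.31 and an adjusted p of 0.194, and its day 14 libraries lay on both sides of day 5. How reads shared by these related genes were divided is not given in the sources used here, so their separate levels are uncertain.

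Elovl5, an elongase of polyunsaturated fatty acids, lay between 22.2 and 29.1 FPKM and was not called. Elovl6, which elongates palmitate, lay between 0.129 and 0.456 FPKM. Fads2, the delta-6 desaturase, was at 0.0628 to 0.92 FPKM from 2 to 27 fragments a library, and no change was detectable at this depth (log2 difference 1.41 ± 1.02 to day 28).

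**Figure D3:**
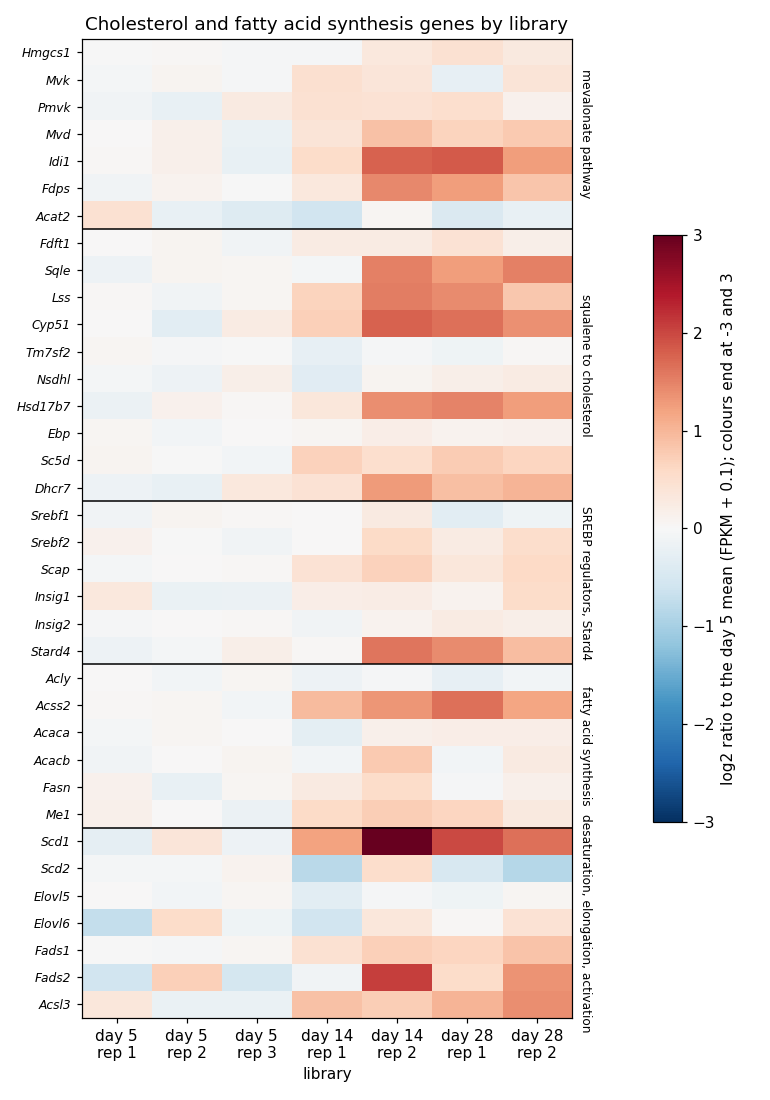
The log2 ratio of each gene's FPKM + 0.1 in each library (columns) to the day 5 mean, with genes in rows grouped by role and red for higher, blue for lower (scale -3 to 3). The sterol enzymes have a median of 0.29 in day 14 replicate 1 and of 0.90, 0.83 and 0.73 in day 14 replicate 2 and day 28 replicates 1 and 2.

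The 2 day 14 libraries differed from each other for many of these genes. Replicate 2 was above replicate 1 for 32 of the 36 (88.9%, against 49.4% of all genes tested), the exceptions being Acsl3, Mvk, Pmvk and Sc5d. It was at least 2-fold higher for 9 (25%, against 3.08% of all genes, computed on FPKM + 0.1): Cyp51, Fads2, Fdps, Hsd17b7, Idi1, Scd1, Scd2, Sqle and Stard4. Sqle was 3.08 times as high in replicate 2, Stard4 3.19 times and Scd1 5.59 times. The 2 day 28 libraries were at least 2-fold apart for none of the 36 genes, against 5.49% of all genes.

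With day 14 represented by replicate 2 alone, 15 of the 36 genes were called higher than at day 5, against 13% of all genes, and Sqle had a log2 fold change of 1.58. With replicate 1 alone, Acss2 was called higher and Scd2 lower (2.13% of all genes called), and Sqle had a log2 fold change of -0.05. Cyp51 moved between 1.86 and 0.75, and Scd1 between 3.98 and 1.49. Without replicate 2, Sqle was the only one of the 36 called from day 14 to day 28, as higher, and without replicate 1 only Scd2 was called, as lower. In these settings the lone library is assumed to vary as the other groups do. The 6 calls from day 5 to day 14 also rested on the day 5 libraries, with 1, 0 and 0 genes called without day 5 replicates 1, 2 and 3. Calls among all genes fell as well, to 0.493%, 0.83% and 0.407%, against 4.78% with all libraries. Acss2 was called in 12 of the 17 alternative analyses, Fads1 in 8 and the other 4 genes in 3 to 6.

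**Figure D4:**
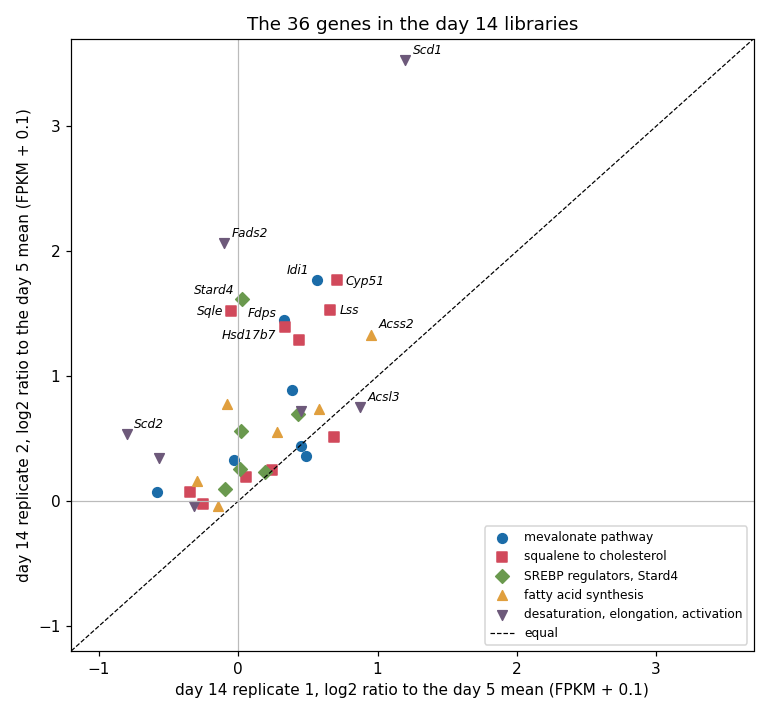
Each of the 36 genes as a point, with its log2 ratio to the day 5 mean in day 14 replicate 1 (horizontal) and replicate 2 (vertical), computed on FPKM + 0.1, with symbols for roles and a dashed line for equal ratios. Of the 36 points, 32 lie above the line, and Sqle, Stard4, Fads2, Scd2, Acacb and Srebf2 lie below 0.1 for replicate 1 but at 0.533 or more for replicate 2.

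Markers of other cells also differed between these 2 libraries. Summed over 6 fibroblast genes, FPKM was 222 in day 14 replicate 1 and 80.2 in replicate 2, against 27.8 to 72.1 at day 5 and 34.9 to 56.1 at day 28. Of that list 1 gene, Col1a2, was called higher at day 14. Of the Schwann cell genes, S100b and Sox10 had at most 6 and 4 fragments in any library. Mbp was at 10.3, 11.4 and 11.4 FPKM at day 5, 12.2 and 19.8 at day 14, and 19.5 and 17.2 at day 28, and was called higher at day 28 than at day 5 (0.75 ± 0.19, adjusted p = 0.0296). Its day 14 libraries stood apart in the same order as those of Sqle. Pmp22, which other cells also express, had 267 FPKM in day 14 replicate 1, 139 in replicate 2, 230.3 to 283 at day 5 and 133 to 138 at day 28, and was called lower at day 28 (-0.92 ± 0.24, adjusted p = 0.0314). The 4 neutrophil genes summed to 499.9 and 519.8 at day 14, 242 to 279 at day 5 and 105 to 254 at day 28. The 5 endothelial genes summed to 14 and 7.35 at day 14, 14.6 to 26.9 at day 5 and 3.75 to 6.86 at day 28. Of these, Pecam1 and Kdr were called lower and Tek higher at day 28 than at day 5. Tek was very low, with 0 to 46 fragments and at most 0.267 FPKM in any library. The T cell list, nearly all of it Cd2, summed to 4.2 and 13 at day 14, 3.8 to 5.14 at day 5 and 10.5 to 13.6 at day 28. Cd2 had 3.57 FPKM in day 14 replicate 1 and 12.2 in replicate 2, the order seen for Sqle, and was called higher at day 28 (1.56 ± 0.42, adjusted p = 0.036), while Cd3e, Cd3d and Cd3g had at most 10 fragments in any library. The part of these markers in the values of the synthesis genes was not tested.

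The adipocyte genes Adipoq and Lep had 0 fragments in all 7 libraries, and the 5 genes of that list summed to at most 1.04 FPKM. The eosinophil genes summed to at most 5.69 FPKM and the dendritic cell genes to at most 9.74, and of these lists only Siglec5, on the eosinophil list, was called (higher at day 28, 1.85 ± 0.36, adjusted p = 0.0105). Among 7 macrophage genes, Emr1 and Cd14, which encode antigens used in the sort, were called lower at day 28 than at day 5 (log2 fold changes of -1.01 and -0.76), Cd14 also at day 14.

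Of 15 proliferation genes, 6 were called higher at day 14 than at day 5 and 3 at day 28, none lower. Among all genes tested, 2.84% and 7.74% were called higher, and 1.94% and 7.51% lower. The median log2 fold change of the 15 genes was 0.87 to day 14 and 0.56 to day 28. Over all genes tested it was 0.03 in both comparisons. The summed FPKM of the 15 genes, most of it from Pcna, was 194 to 233 at day 5, 205 to 225 at day 14 and 206 to 222 at day 28. The part of proliferation in the values of the synthesis genes was not tested.

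Other genes of the same pathways were listed apart from the 36. On the sterol side, 9 were tested, and from day 5 to day 28 Sc4mol rose while Lbr and Erlin1 fell. Of all genes tested, 7.74% were called higher in that comparison and 7.51% lower. The median log2 fold change of the 9 genes to day 28 was -0.13. Sc4mol, the sterol methyl oxidase that acts after Cyp51, was at 11.7, 10.9 and 12.8 FPKM at day 5, 12.2 and 17.8 at day 14, and 20.2 and 17.3 at day 28 (0.69 ± 0.17, adjusted p = 0.0296). Lbr, which doubles as a sterol reductase and a nuclear envelope protein, fell by 0.64 log2 (SE 0.12, adjusted p = 0.0107), and Erlin1, which takes part in the turnover of sterol sensors, by 0.48 (SE 0.13, adjusted p = 0.0381). None of the 9 was called from day 5 to day 14, against 4.78% of all genes.

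On the fatty acid side, 19 further genes were tested, of which 2 rose to day 14 and 2 to day 28, with none lower. The shares of all genes called higher were 2.84% and 7.74%, and lower 1.94% and 7.51%. The median log2 fold change of the 19 genes was 0.08 to day 14 and -0.05 to day 28. Mid1ip1, which promotes polymerization of acetyl-CoA carboxylase, was at 18, 19.4 and 22.4 FPKM at day 5, 32.9 and 39.4 at day 14, and 27.4 and 34.1 at day 28. It rose at both times (0.87 ± 0.14, adjusted p = 0.0189, and 0.64 ± 0.15, adjusted p = 0.0205). Oxsm, of mitochondrial fatty acid synthesis, rose to day 14 (0.99 ± 0.23, adjusted p = 0.0465), and Lpin1, a phosphatidate phosphatase, to day 28 (1.14 ± 0.30, adjusted p = 0.0352). The other 16 genes, among them the elongase Elovl1 and the synthetases Acsl1, Acsl4 and Acsl5, were not called in any comparison.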

How the data were processed

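RNASeq was analysed in 7 libraries of polyA+ RNA from sorted macrophages. Per the labels and the study's methods, the authors ran cutadapt 1.8 on single-end reads, TopHat2 2.0.13 against mm10 and Cuffdiff 2.2.1 for the levels of genes. The authors deposited 3 values per gene and library: the expected count, which is the estimated number of fragments of the gene, the same after scaling of the libraries (scaled signal), and FPKM. Whether strand was used, and how reads of related genes were shared, is not given in the sources used here. Of the expected counts 0.947% were not whole (tolerance 1e-06).

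The test was the quasi-likelihood F test of edgeR 4.0.16 (R 4.3.3) on expected counts rounded to whole numbers, with TMM scaling and filterByExpr. A single fit held the 7 libraries and their time points, with no covariate, and p-values were adjusted by Benjamini-Hochberg over 12858 genes. The SE is the log2 fold change divided by the square root of F and is approximate. The code was tested on simulated data. DESeq2 1.42.0 and limma 3.58.1 on log2(FPKM + 1) and log2(FPKM + 0.1) were alternatives, beside RLE size factors, the authors' scaled signal, no expression filter, fits on 2 time points, a replicate block and leaving out each library. Tables and plots used Python 3.11.15, pandas 2.3.3 and matplotlib 3.10.9. Coordinates are those of GENCODE M21, and promoters those of RefSeq (GRCm38.p6).

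The 36 genes, the other pathway genes and the lists of proliferation and cell type markers were chosen with earlier results of these data known. Values in every library are given for those of the 36 genes called in any comparison, for the SREBP regulators and for Hmgcs1, Acaca, Fasn and Scd2, and others of the 36 by ranges. Stard4, Sc4mol, Mid1ip1, Mbp and Cd2 were given in full after their values were seen. A count of 0 allows up to 3 fragments, for counting error only. The p-values measure the spread between the 2 or 3 libraries of a time point. Some genes of the marker lists are not reported here.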

Additional observations from a re-analysis of the deposited data

How the results depend on the processing

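The rises of Acss2, Fads1 and Acsl3 from day 5 to day 28 were called in all 17 alternatives. The other counts depended on the processing. The limma analyses, except the one with no filter, left out genes with a mean FPKM below 1, Hsd17b7 among them. From day 5 to day 14 the synthesis genes called numbered 6 in the analysis reported, 12 with DESeq2, 14 with no expression filter, 1 with limma on log2(FPKM + 1) or log2(FPKM + 0.1), 0 with limma and no filter, 2 with only the 2 time points compared, and 0 to 15 with 1 library left out. From day 5 to day 28 they numbered 14, and 15, 15 and 18 with DESeq2, no filter and 2 time points (19.3%, 14.3% and 22.1% of all genes). The 18 included Scd2 as lower. In the 3 limma analyses the synthesis genes called numbered 7, 8 and 4 (14.7%, 14.8% and 5.82% of all genes). Without day 5 replicates 1, 2 and 3 they numbered 4, 5 and 5 (6.42%, 7.17% and 7.57%). From day 14 to day 28 they numbered 0, and 0 to 1 with 1 library left out. Among all genes, calls from day 5 to day 14 numbered 614, and 1366 with DESeq2, 1429 with no filter, 214, 239 and 0 with limma, 315 with 2 time points and 52 to 1728 with 1 library left out. Calls from day 14 to day 28 numbered 8, and 332 with DESeq2, 390 with no filter, 0, 1 and 0 with limma, 0 with 2 time points and 0 to 629 with 1 library left out. Calls from day 5 to day 28 numbered 1960, and 1008 with limma and no filter and 452 to 2746 with 1 library left out. The cause of these differences was not tested.

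With the replicate number as a block, the synthesis genes called numbered 0 at day 14 and 5 at day 28 against day 5 (Acsl3, Acss2, Cyp51, Dhcr7 and Fads1), and all genes called 6, 0 and 735 in the 3 comparisons. Libraries of different days come from different mice. Neither the labels nor the methods say whether same-numbered libraries shared anything else, such as a day of surgery, sorting or library preparation. Deviations of same-numbered libraries over 7556 genes correlated at 0.402 and 0.0472 between days 5 and 14, at -0.0424 and 0.0438 between days 5 and 28, and at -0.146 between days 14 and 28. The day 28 numbers were also crossed, a pairing chosen after seeing the data. Synthesis genes called then numbered 2 and 11 at days 14 and 28 against day 5, with none between days 14 and 28. All genes called numbered 357 at day 14 and 1579 at day 28 against day 5, and 63 at day 28 against day 14.

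Over 22 named genes and 3 comparisons, 1116 alternative values were computed. Of these, 911 were called or not as before with no counted change of sign, 143 lost the call, 33 gained one and 29 changed sign. Each change of sign was for a difference that was not called. Signs were compared on rounded values, and 0.00 counted as no change, as for Lss between days 14 and 28. Scd2 between days 5 and 14 (0.03) became -0.12, -0.13 and -0.12 with limma and -0.05 with the crossed block. The other changes of sign came with 1 library left out, and the ranges over the 7 such analyses follow. Between days 5 and 14 they were -0.80 to 0.55 for Scd2, called at both ends, -0.05 to 1.58 for Sqle, -0.06 to 0.09 for Insig2, -0.03 to 0.34 for Hmgcs1 and -0.30 to 0.18 for Acaca, with the ends set by leaving out either day 14 library. Between days 14 and 28 they were -0.17 to 0.34 for Mvd, -0.19 to 1.06 for Idi1, -0.37 to 0.78 for Fdps, -0.14 to 1.49 for Sqle, -0.25 to 0.85 for Cyp51, -0.01 to 1.16 for Hsd17b7, -0.33 to 0.54 for Dhcr7, -0.18 to 0.38 for Srebf2, -0.23 to 0.06 for Scap, -1.78 to 0.71 for Scd1 and -1.2 to 0.15 for Scd2, again with the ends set by the day 14 libraries. Lss between days 14 and 28 (0.00) ranged from -0.38 to 0.54. Insig1 between days 14 and 28 ranged from -0.11 to 0.33 and Fasn between days 5 and 28 from -0.03 to 0.17.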
